A study of Mus musculus with 33 samples.

Results

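Reactive astrocyte genes are the genes that astrocytes switch on or raise when brain tissue is injured, inflamed or burdened with amyloid. The 10 genes described here are Gfap, Vim, S100a10, S100a6, Serpina3n, Lcn2, Cd44, Timp4, Osmr and Steap4, out of 18193 genes that the array annotation names singly. All 23 probe sets annotated to only 1 of these genes were taken, out of 45037 probe sets that are not Affymetrix controls. RNA came from the right hippocampus. There were 33 arrays, each of 1 male mouse, in 3 groups of 11.

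Astrocytes fill their processes with intermediate filaments, and the filament proteins GFAP and vimentin are the classical signs of reactivity. Cytokines of the IL-6 family, oncostatin M among them, act through receptors that share gp130 and activate the transcription factor STAT3, which binds the promoter of Gfap. In mouse models of amyloid deposition, astrocytes near plaques are known for high Gfap and Serpina3n.

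All animals came from a mixed SJL × C57BL/6J background and were 20 weeks old. Wild-type littermates received vehicle. Heterozygous Tg2576 mice, which carry human APP with the Swedish mutation driven by the prion promoter, received either vehicle or TO901317, an agonist of the liver X receptors (LXR), by gavage at 50 mg per kg per day. The length of dosing is 7 days in one label and 5 days in another. The prion promoter is active in neurons and other brain cells, so the transgene is not restricted to 1 cell type. In RNA of whole hippocampus, fewer cells of a type and less RNA per cell cannot be told apart. Wild-type mice given the drug were not used here.

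Promoter sequences of 9 of the 10 genes were found in RefSeq (GRCm38.p6), each from 250 bases before to 50 bases after the start of the gene. They were searched on both strands for the STAT element TTCNNNGAA, the AP-1 site TGANTCA and the LXR element, 2 AGGTCA half-sites in the same orientation with 4 bases between them. The 3 promoters that hold a match are shown, since STAT3 and AP-1 are regulators named for these genes, with the matching bases in capitals.
Gfap, chr11:102897151-102897450, minus strand: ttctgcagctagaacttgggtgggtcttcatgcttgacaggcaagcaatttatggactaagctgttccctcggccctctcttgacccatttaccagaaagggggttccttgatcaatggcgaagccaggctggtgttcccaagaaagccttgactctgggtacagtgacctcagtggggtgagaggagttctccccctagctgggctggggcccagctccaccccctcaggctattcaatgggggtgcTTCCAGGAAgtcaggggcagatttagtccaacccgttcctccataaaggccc
Steap4, chr5:7960222-7960521, plus strand: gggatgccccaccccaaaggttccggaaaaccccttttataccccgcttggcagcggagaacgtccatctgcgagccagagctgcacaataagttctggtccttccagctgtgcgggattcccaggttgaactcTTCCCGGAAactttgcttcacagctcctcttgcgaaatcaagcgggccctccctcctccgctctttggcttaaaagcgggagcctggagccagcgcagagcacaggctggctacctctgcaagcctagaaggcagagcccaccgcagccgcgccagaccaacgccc
Osmr, chr15:6874264-6874563, minus strand: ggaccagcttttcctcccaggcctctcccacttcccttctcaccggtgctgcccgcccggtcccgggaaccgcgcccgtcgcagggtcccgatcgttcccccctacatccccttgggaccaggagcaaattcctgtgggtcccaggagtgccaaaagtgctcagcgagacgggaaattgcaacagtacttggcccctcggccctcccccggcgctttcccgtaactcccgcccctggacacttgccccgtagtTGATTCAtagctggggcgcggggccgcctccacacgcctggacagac
The STAT element was present in Gfap, as TTCCAGGAA with its first base at position -2 from the start, and in Steap4, as TTCCCGGAA at position -116. It occurred in 8.3% of all 32851 promoter windows. The AP-1 site was present in Osmr only, as TGATTCA, and in 7.81% of all windows. The LXR element was in none of the 9 windows and in 0.0152% of all windows. A match describes the letters of this window and is not a measured binding site.

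The values were linear array signals, scaled to a common mean (99.97 once the lowest and highest 2 percent were left out), with array medians between 19.5 and 28.9. Differences are given on the log2(signal + 16) scale, which understates the change of dim genes. Vehicle Tg2576 replicates 3 and 4 stood apart in the Gapdh 3'/5' signal ratio, which reflects how intact the RNA was. Their log2 ratios were 0.11 and 0.08, while the highest value was -0.08 in the rest of their group, -0.09 in wild type and -0.11 in treated animals. The sum over 15 homeostatic astrocyte markers had a median signal of 18148 in wild type (15757 to 20039), 15836 in vehicle Tg2576 (14797 to 17366) and 16798 in treated Tg2576 (16306 to 20020). The ranges of the groups overlapped, and the markers were bright in every animal, but every vehicle Tg2576 sum lay below the wild-type median. A score was taken as the mean log2 deviation over these markers. Its group means were 0.09 (SD 0.09) in wild type, -0.07 (SD 0.06) in vehicle Tg2576 and -0.01 (SD 0.09) in treated Tg2576. Since these means differed, fits with the score as a covariate cannot tell a gene's own change from that of these markers. The sum over 14 meningeal and fibroblast markers had medians of 1417 (889 to 3856), 2116 (1099 to 3928) and 1998 (889 to 3247) in the same order.

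Of the 10 genes, 8 passed the filter on low signal and could be tested, with 15 of their 23 probe sets. In vehicle Tg2576 against wild type, S100a10 rose and Timp4 fell, and the other 6 tested genes did not pass the limma test (adjusted p under 0.05 over 12760 genes). Over all genes 0.235% passed in that comparison, 0.125% higher and 0.11% lower. The median difference of the 8 genes was 0.27, beside 0.01 over all genes tested, and 6 of them lay above 0. An unadjusted p under 0.05 was reached by 6 of the 8, beside 1520 of all 12760 genes. The genes were chosen with earlier results of these data known, and several of them vary together between animals. This count is therefore a description and no test of the 8 genes as a set. With TO901317 in Tg2576, 0 of the 8 passed, where 0.282% of all genes did. 2 of the 8 had an unadjusted p under 0.05 there, beside 1497 of all genes. In treated Tg2576 against wild type, again 0 of the 8 passed, where 0.361% of all genes did, and 3 had an unadjusted p under 0.05, beside 1204 of all genes. Of the 15 probe sets 3 passed in the first comparison (1 of S100a10, higher, and both of Timp4, lower), where 0.159% of all probe sets did. In the other comparisons 0 passed, where 0.141% of all probe sets did with TO901317 in Tg2576 and 0.144% in treated Tg2576 against wild type. Each pair of these comparisons shares a group of animals, so they are not independent.

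**Figure D1:**
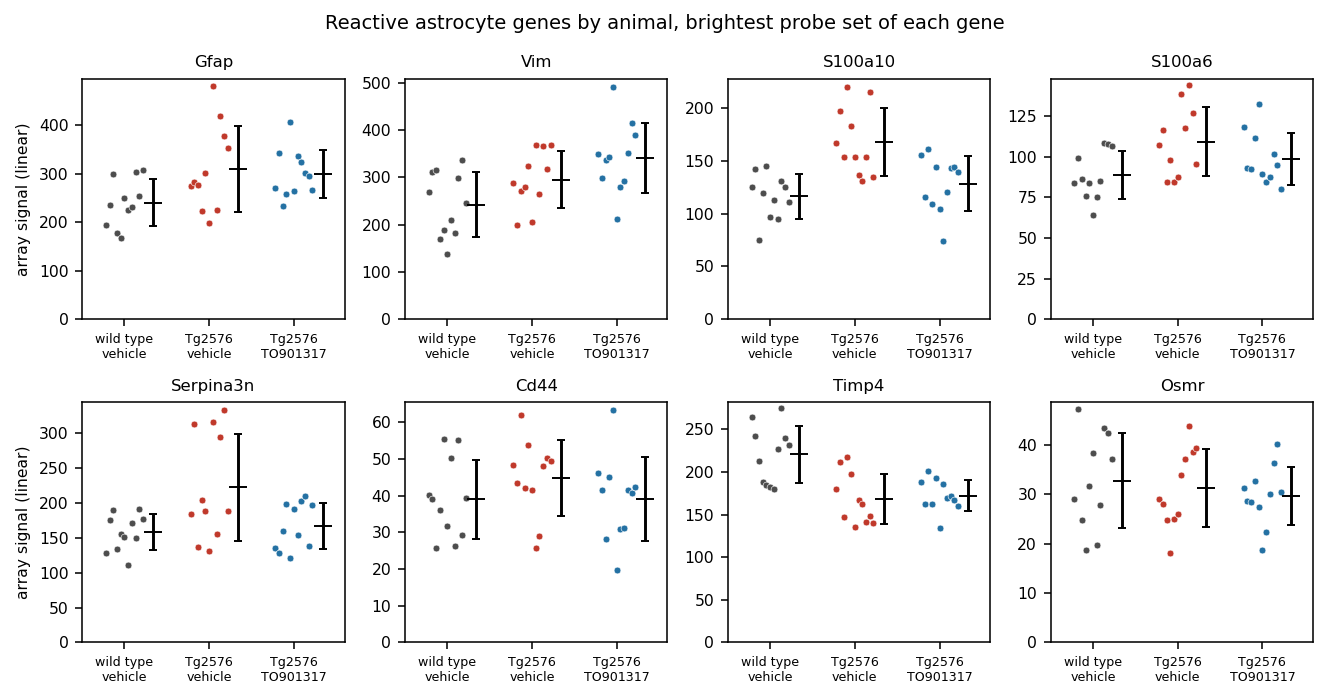
Array signal (linear scale) of the brightest probe set of each of the 8 tested genes, 1 point per animal in order of replicate number, with the mean and SD of each group of 11 in black. All 11 vehicle Tg2576 animals lie above the wild-type median for S100a10 and 0 of them for Timp4, while Osmr and Cd44 overlap throughout.

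Gfap encodes the main intermediate filament protein of astrocytes and was measured by 3 probe sets. For 1440142_s_at, the brightest, the signal ranged from 167 to 308 in wild type with a median of 235, from 198 to 480 in vehicle Tg2576 with a median of 282, and from 234 to 407 in treated Tg2576 with a median of 296. The groups overlapped, and 4 vehicle Tg2576 animals lay above every wild-type animal. The difference between vehicle Tg2576 and wild type was 0.33 (SE 0.12, limma adjusted p = 0.258).

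The probe set 1426508_at gave a larger difference. Its signal ranged from 125 to 272 in wild type with a median of 169, from 198 to 405 in vehicle Tg2576 with a median of 237, and from 160 to 271 in treated Tg2576 with a median of 233. All 11 vehicle Tg2576 animals lay above the wild-type median and 4 above the highest wild-type value. The difference was 0.52 (95% interval 0.28 to 0.76, adjusted p = 0.0583 by limma over 27022 probe sets, of which 0.159% passed). It passed without vehicle Tg2576 replicates 3 and 4, at 0.58 (adjusted p = 0.042). It passed with the Gapdh ratio as a covariate, at 0.56 (adjusted p = 0.0278), and with the dimmest 60 percent of probe sets left out (adjusted p = 0.0426). It also passed without wild-type replicate 9 or 10, vehicle Tg2576 replicate 2 or 4, or treated replicate 11, with adjusted p between 0.0245 and 0.112 over all 33 such fits. In 28 of those 33 fits, and in 9 of 13 other alternatives, it did not pass (adjusted p up to 0.202 by limma). The probe set 1426509_s_at differed by 0.41 (adjusted p = 0.175). At the gene level the mean of the 3 probe sets gave 0.42 and did not pass (adjusted p = 0.0664 by limma).

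TO901317 against vehicle in Tg2576 gave -0.01 for 1440142_s_at (95% interval -0.26 to 0.23), -0.21 for 1426508_at (-0.45 to 0.03) and -0.20 for 1426509_s_at (-0.44 to 0.05). None of these 3 probe sets passed.

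Vim encodes vimentin, the filament protein of reactive astrocytes and also of endothelial and other mesenchymal cells. The signal of 1450641_at ranged from 138 to 336 in wild type with a median of 245, from 199 to 368 in vehicle Tg2576 with a median of 288, and from 211 to 491 in treated Tg2576 with a median of 342. In treated animals 7 of 11 lay above the highest wild-type value. The difference from wild type was 0.29 with vehicle (SE 0.14, adjusted p = 0.383) and 0.49 with TO901317 (SE 0.14, adjusted p = 0.122), and neither passed the limma test. With vehicle the difference was 0.19 with the meningeal score as a covariate and 0.58 with the homeostatic astrocyte score (adjusted p = 0.616 and 0.0834).

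The other 2 Vim probe sets pointed the same way without passing, at 0.34 and 0.33 for treated Tg2576 against wild type. In that comparison Vim passed with the homeostatic astrocyte score as a covariate, at 0.66 (adjusted p = 0.0158 by limma). That score itself had a mean of 0.09 in wild type and -0.01 in treated Tg2576, so this value cannot be read as the change of Vim alone. With the endothelial score as a covariate, an alternative chosen after seeing the data, the difference was 0.28 (adjusted p = 0.252). TO901317 against vehicle in Tg2576 gave 0.20 for Vim (adjusted p = 0.628), and -0.08 with the endothelial covariate (adjusted p = 0.844). Of 11 endothelial markers, 1 passed in treated Tg2576 against wild type, where 0.361% of all genes did. There 8 of the 11 lay above 0 and 3 below, with a median of 0.12. The passing marker was Vwf (von Willebrand factor), higher by 0.66 (SE 0.14, adjusted p = 0.016 by limma). With TO901317 in Tg2576 1 of the 11 passed, where 0.282% of all genes did. Again 8 lay above 0 and 3 below, with a median of 0.17. The marker that passed there was Slco1a4, a transporter of the blood-brain barrier, higher by 0.42 (SE 0.08, adjusted p = 0.0123 by limma). The part of endothelial RNA in the Vim values was not tested beyond these fits.

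**Figure D2:**
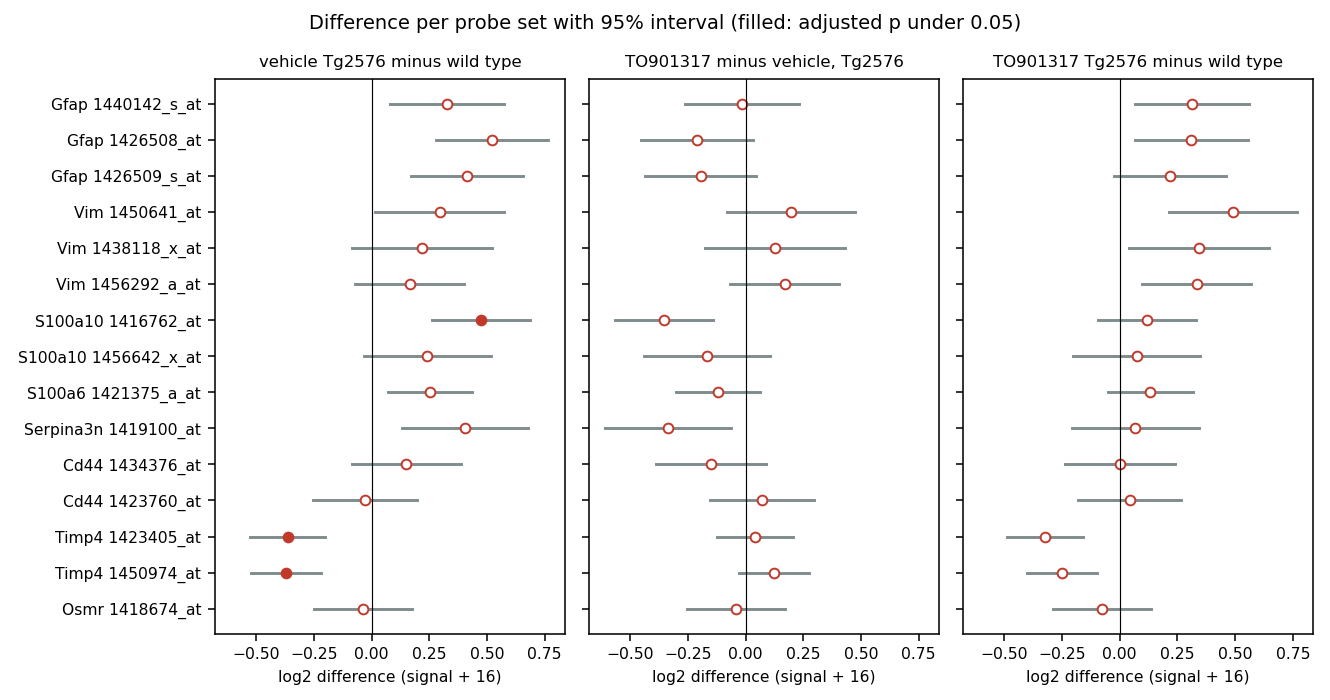
Differences on the log2(signal + 16) scale with 95% intervals for the 15 probe sets past the filter, in 3 comparisons; filled points passed the limma test over all probe sets. Filled points are S100a10 1416762_at and both Timp4 probe sets, in vehicle Tg2576 against wild type.

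S100a10, also called p11, is a partner of annexin A2 and is used as a marker of one reactive astrocyte state, although neurons express it too. The signal of 1416762_at ranged from 75.2 to 145 in wild type with a median of 120, from 131 to 221 in vehicle Tg2576 with a median of 154, and from 74 to 162 in treated Tg2576 with a median of 140. The highest wild-type animal was exceeded by 8 of 11 vehicle Tg2576 animals. The rise was 0.47 (SE 0.10, 1.39-fold, adjusted p = 0.0299 by limma).

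The call for S100a10 rested on a narrow margin. At the gene level it was lost in 6 of 33 fits that left out 1 animal, namely wild-type replicates 3, 6 and 8 and vehicle Tg2576 replicates 2, 4 and 10, with adjusted p between 0.00998 and 0.0693 over all of them. Without vehicle Tg2576 replicates 3 and 4 the difference was 0.44 (adjusted p = 0.0783), and the exact rank-sum test gave an adjusted p of 0.0603. The mean of the probe sets past the filter gave 0.36 and lost the call (adjusted p = 0.1365 by limma). Among all probe sets, where 1416762_at had an adjusted p of 0.0433, the call was lost in 19 of the 33 fits (adjusted p up to 0.0988). There it was also lost with a pseudocount of 1 (0.0512), the Gapdh covariate (0.0513), only the groups compared (0.0526) and eBayes without trend and robust (0.0635), each an adjusted p by limma. The second probe set, 1456642_x_at, differed by 0.24 (adjusted p = 0.584), and the third, 1439348_at, was below the filter, with group medians between 7.9 and 11.2.

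With TO901317 the signal of S100a10 1416762_at differed from that of vehicle Tg2576 by -0.36 (95% interval -0.57 to -0.14, adjusted p = 0.134). For this probe set 5 treated animals lay below every vehicle Tg2576 animal. This difference did not pass. The second probe set, 1456642_x_at, differed by -0.17 (95% interval -0.44 to 0.11, adjusted p = 0.71 by limma). It did not pass in any of 13 alternatives (adjusted p 0.328 or higher by limma). The mean of the probe sets past the filter gave -0.26 (adjusted p = 0.325 by limma). At the gene level 1416762_at passed with the homeostatic astrocyte score as a covariate, at -0.46 (adjusted p = 0.0162). The same covariate moved the rise in vehicle Tg2576 from 0.47 to 0.75 (adjusted p = 0.00077 by limma). The score itself had means of 0.09 in wild type, -0.07 in vehicle Tg2576 and -0.01 in treated Tg2576. These values therefore cannot be read as the change of S100a10 alone. Treated animals differed from wild type by 0.12 (adjusted p = 0.792), and by 0.29 with this covariate (adjusted p = 0.197).

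S100a6, a calcium-binding protein of the same family, ranged in signal from 64.1 to 109 in wild type with a median of 85.1. It ranged from 84.6 to 144 in vehicle Tg2576 with a median of 108, and from 80 to 133 in treated Tg2576 with a median of 93.1. The groups overlapped, although 5 vehicle Tg2576 animals exceeded all wild-type animals. The difference of 0.25 (SE 0.09, adjusted p = 0.215) did not pass the limma test.

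Serpina3n encodes a secreted serine protease inhibitor and belongs to a cluster of closely related genes, so its probe set may also read its relatives. Its signal ranged from 112 to 192 in wild type with a median of 156, from 131 to 334 in vehicle Tg2576 with a median of 189, and from 121 to 210 in treated Tg2576 with a median of 159. Vehicle Tg2576 replicates 2, 7, 9 and 10 read 313, 317, 295 and 334, and every other animal of that group read 204 or less. The SD on the log2 scale was 0.46 in vehicle Tg2576, 0.22 in wild type and 0.27 in treated Tg2576. The differences were 0.40 between vehicle Tg2576 and wild type (SE 0.14, adjusted p = 0.196) and -0.34 between treated and vehicle Tg2576 (adjusted p = 0.308), and neither passed.

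Timp4, an inhibitor of matrix metalloproteinases that astrocytes express, was lower in vehicle Tg2576. The signal of 1423405_at ranged from 180 to 275 in wild type with a median of 226, from 136 to 218 in vehicle Tg2576 with a median of 163, and from 134 to 201 in treated Tg2576 with a median of 170. In both Tg2576 groups 7 of 11 animals lay below the lowest wild-type animal and 0 above the wild-type median. The fall in vehicle Tg2576 was -0.36 (SE 0.08, adjusted p = 0.0299 by limma), and treated animals differed from wild type by -0.32 (adjusted p = 0.0631).

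The second Timp4 probe set, 1450974_at, ranged from 138 to 191 in wild type, 96.8 to 149 in vehicle Tg2576 and 85.6 to 159 in treated Tg2576, with medians of 163, 126 and 139. In treated Tg2576 it differed from wild type by -0.25 without passing (adjusted p = 0.233 by limma), with 4 of 11 animals below the lowest wild-type animal. It fell by 0.37 in vehicle Tg2576 (adjusted p = 0.0199 by limma), with 8 of 11 animals below the lowest wild-type animal. This call held in all 33 fits that left out 1 animal, with adjusted p up to 0.0481. It was lost without vehicle Tg2576 replicates 3 and 4 together (-0.34, adjusted p = 0.0681). As covariates, the meningeal score (-0.32, adjusted p = 0.0663) and the homeostatic astrocyte score (-0.31, adjusted p = 0.116) also removed this call by limma. For 1423405_at at the gene level the call was lost in 10 of the 33 fits, those without wild-type replicate 1, 2, 9, 10 or 11 or vehicle Tg2576 replicate 3, 6, 9, 10 or 11, with adjusted p between 0.0117 and 0.0676. The gene-level call was also lost with only the groups compared (adjusted p = 0.0882 by limma) and by the exact rank-sum test (adjusted p = 0.177), while the mean of both probe sets gave -0.37 (adjusted p = 0.00216). Among all probe sets, 1423405_at lost its call in 21 of the 33 fits (adjusted p up to 0.098), with no filter (0.0541), with eBayes without trend and robust (0.0638) and with only the groups compared (0.15).

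The fall of Timp4 went along with the homeostatic astrocyte markers. Of 15 such markers, 14 lay below 0 in vehicle Tg2576 against wild type, with a median of -0.16. Slc4a4, a sodium bicarbonate cotransporter of astrocytes, passed, at -0.27 (SE 0.05, adjusted p = 0.00177), and it was also lower in treated Tg2576 than in wild type, at -0.29 (adjusted p = 0.000346). With the score of these markers as a covariate, the gene-level difference in vehicle Tg2576 (1423405_at) went from -0.36 to -0.16 (adjusted p = 0.388). For the second probe set, 1450974_at, the same covariate moved it less, from -0.37 to -0.31 (adjusted p = 0.116 by limma). The part of astrocyte content in the fall was not tested beyond these fits. With TO901317 Timp4 1423405_at differed from vehicle Tg2576 by 0.04 (95% interval -0.12 to 0.20), and by -0.04 with this covariate. Without the covariate 1450974_at differed by 0.12 (95% interval -0.03 to 0.27), which did not pass.

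**Figure D3:**
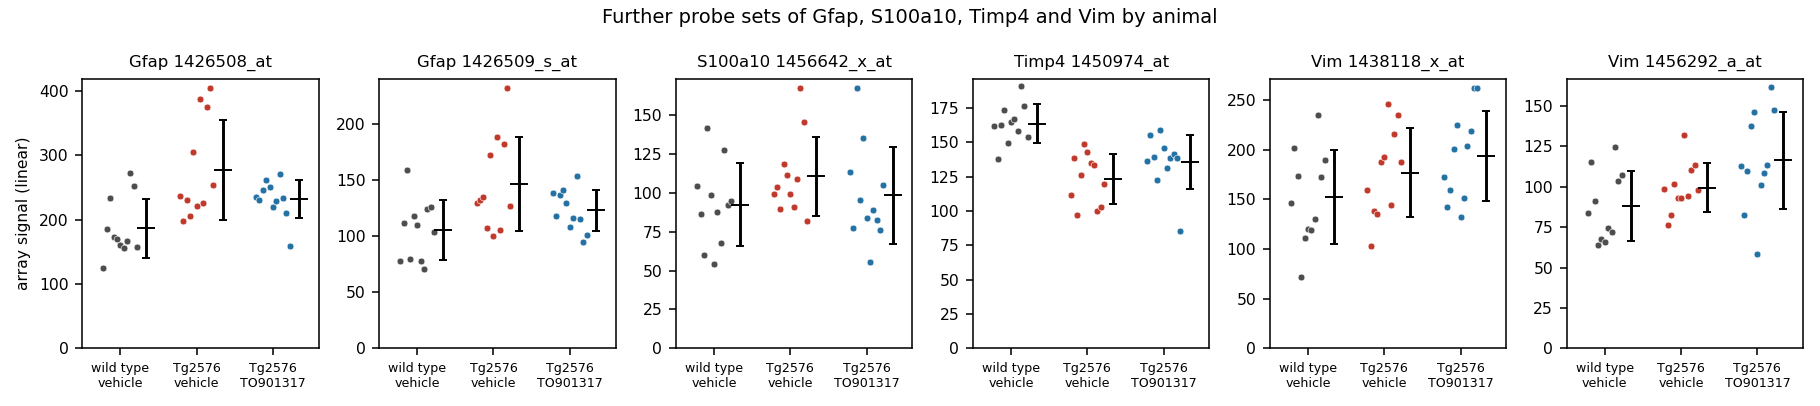
Array signal (linear scale) of further probe sets of Gfap, S100a10, Timp4 and Vim, 1 point per animal in order of replicate number, with the mean and SD of each group of 11 in black. The signal of Timp4 1450974_at is lower in vehicle Tg2576, and the groups overlap more for S100a10 1456642_x_at than for 1416762_at of the same gene.

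Cd44, a receptor for hyaluronan, gave a signal of 25.6 to 55.4 in wild type, 25.6 to 61.9 in vehicle Tg2576 and 19.8 to 63.2 in treated Tg2576 (1434376_at). The groups overlapped throughout, and vehicle Tg2576 differed from wild type by 0.15 (adjusted p = 0.661). A second probe set gave -0.03, and the other 2 were below the filter.

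Osmr, the receptor for oncostatin M, ranged from 18.8 to 47.2 in wild type, 18.1 to 43.9 in vehicle Tg2576 and 18.7 to 40.2 in treated Tg2576. It differed by -0.04 in both the genotype and the drug comparison (95% intervals -0.25 to 0.17 in each). Of 11 tested genes of oncostatin M, IL-6 and STAT3 signalling, 0 passed in any comparison by limma. The one of smallest p in the genotype comparison was the kinase Jak1, at 0.14 (unadjusted p = 0.0315, adjusted p = 0.359).

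Lcn2, which encodes the secreted iron-siderophore carrier lipocalin 2, and Steap4, a metalloreductase, were below the filter. The Lcn2 signal had medians of 1.36, 1.21 and 3.07 in wild type, vehicle Tg2576 and treated Tg2576, with a highest value of 17.5 in a treated animal. Both Steap4 probe sets had group medians between 0.889 and 1.9. No level can be read from signals this low, and these genes have no test.

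Of 20 other tested reactive astrocyte genes, 0 passed in any comparison by limma. In vehicle Tg2576 against wild type 14 of the 20 lay above 0, with a median of 0.08, and the gene of smallest p was Serping1, a complement inhibitor, at 0.42 (unadjusted p = 0.0291, adjusted p = 0.351). Of 17 tested partners and relatives of the 10 genes, 0 passed in any comparison, and the one of smallest p in the genotype comparison was Ezr, which encodes the membrane linker ezrin, at -0.33 (adjusted p = 0.162). Of 12 microglia markers 0 passed either, and the one of smallest p was the lysosomal protein gene Cd68, at 0.18 (adjusted p = 0.273). Of 14 meningeal and fibroblast markers 0 passed, although 12 lay above 0 with a median of 0.49. With their score as a covariate S100a10 differed by 0.43 (adjusted p = 0.0786) and Timp4 by -0.35 (adjusted p = 0.0601), so that neither passed; the part of meningeal tissue was not tested further.

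Inside the groups, several of the genes varied together from animal to animal. After group means were removed, 26 of 28 pairs had a Pearson's r above 0, with a median of 0.24. By a two-sided permutation test within groups, 6 pairs passed (100000 resamples, adjusted over the 28 pairs). How often pairs of other genes pass was not measured, so these counts cannot be called particular to these genes. Vim and S100a6 had r = 0.56 (permutation p = 0.00091, adjusted p = 0.0239) and Spearman's rho = 0.56 (permutation p = 0.00109, adjusted p = 0.0197) over 33 animals. Without the 2 animals farthest from the median of Vim, r was 0.50, and within wild type, vehicle Tg2576 and treated Tg2576 it was 0.80, 0.34 and 0.53.

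Gfap and Vim had r = 0.52 (permutation p = 0.00229, adjusted p = 0.0239) and rho = 0.53 (permutation p = 0.00211, adjusted p = 0.0197). Without the 2 farthest animals r was 0.45, and within the groups it was 0.46, 0.77 and 0.28 in the same order. S100a6 and Osmr had r = 0.53 (permutation adjusted p = 0.0239) and rho = 0.56 (permutation adjusted p = 0.0197).

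The remaining pairs passed by Pearson's r at a permutation adjusted p of 0.0342 each. Vim and Osmr had r = 0.49 (permutation p = 0.00733) and rho = 0.51 (permutation p = 0.00565). Gfap and S100a6 had r = 0.51 (permutation p = 0.00489), and S100a10 and Cd44 had r = 0.48 (permutation p = 0.00642). By rho, Gfap with S100a6 (0.45) and S100a10 with Cd44 (0.44) did not pass (permutation adjusted p = 0.0631 for each). Without the 2 farthest animals r was 0.53 for S100a6 with Osmr, 0.55 for Vim with Osmr, 0.41 for Gfap with S100a6 and 0.43 for S100a10 with Cd44.

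Gfap and Serpina3n did not pass (r = 0.44, permutation adjusted p = 0.082). Their r was 0.49 in wild type, 0.74 in vehicle Tg2576 and -0.48 in treated Tg2576, with 11 animals in each. Vehicle Tg2576 replicates 7, 9 and 10 were high in both genes, while replicate 2 was high in Serpina3n and near its group's median in Gfap 1440142_s_at. The difference between these r values was not tested.

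**Figure D4:**
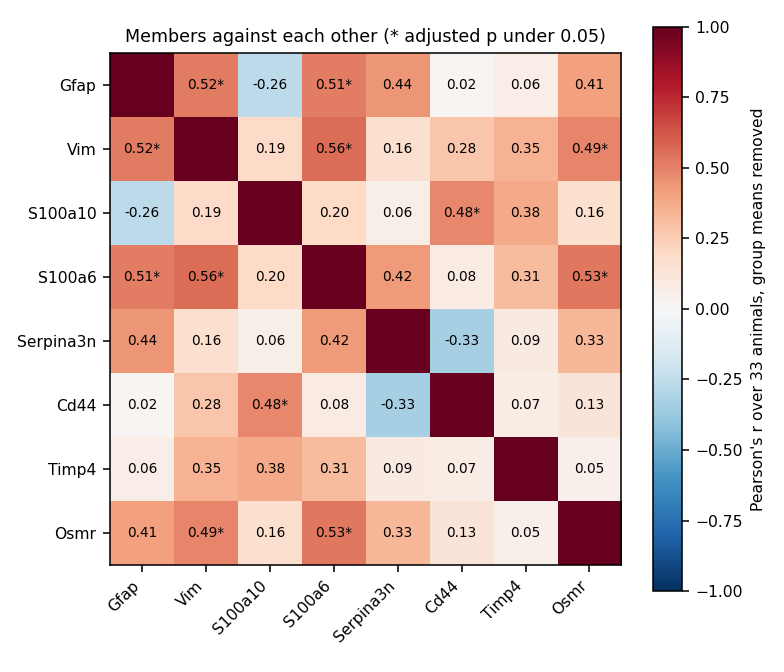
Pearson's r between the 8 tested genes over 33 animals after removing group means, with an asterisk where the permutation test passed after adjustment over 28 pairs. Gfap, Vim, S100a6 and Osmr hold 5 of the 6 marked pairs.

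Set against marker scores and the Gapdh ratio of the same animals, 5 of 40 relations passed. How often other genes pass with these scores was not measured. Vim and the endothelial score had r = 0.74 (permutation p = 3e-05, adjusted p = 0.0012) and rho = 0.74 (permutation p = 4e-05, adjusted p = 0.0016). Without the 2 farthest animals r was 0.72, but within the groups it was 0.93 in wild type, 0.09 in vehicle Tg2576 and 0.90 in treated Tg2576, so the relation was not seen in the vehicle Tg2576 animals.

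The homeostatic astrocyte score went with S100a10 (r = 0.56, permutation p = 0.0012, adjusted p = 0.016; rho = 0.58, permutation p = 0.00054) and with Timp4 (r = 0.54, permutation p = 0.00119, adjusted p = 0.016; rho = 0.55, permutation p = 0.00124). Within wild type, vehicle Tg2576 and treated Tg2576, r was 0.56, 0.43 and 0.65 for S100a10 and 0.50, 0.64 and 0.57 for Timp4. Without the 2 farthest animals it was 0.54 and 0.59. Cd44 with the same score had r = 0.53 (permutation adjusted p = 0.0247) and rho = 0.48, which did not pass (permutation adjusted p = 0.0559). Osmr with the meningeal score had r = 0.50 (permutation adjusted p = 0.0292) and rho = 0.52 (permutation adjusted p = 0.0224). Gfap had r = -0.05 with the homeostatic astrocyte score. None of the 8 relations with the Gapdh ratio passed.

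**Figure D5:**
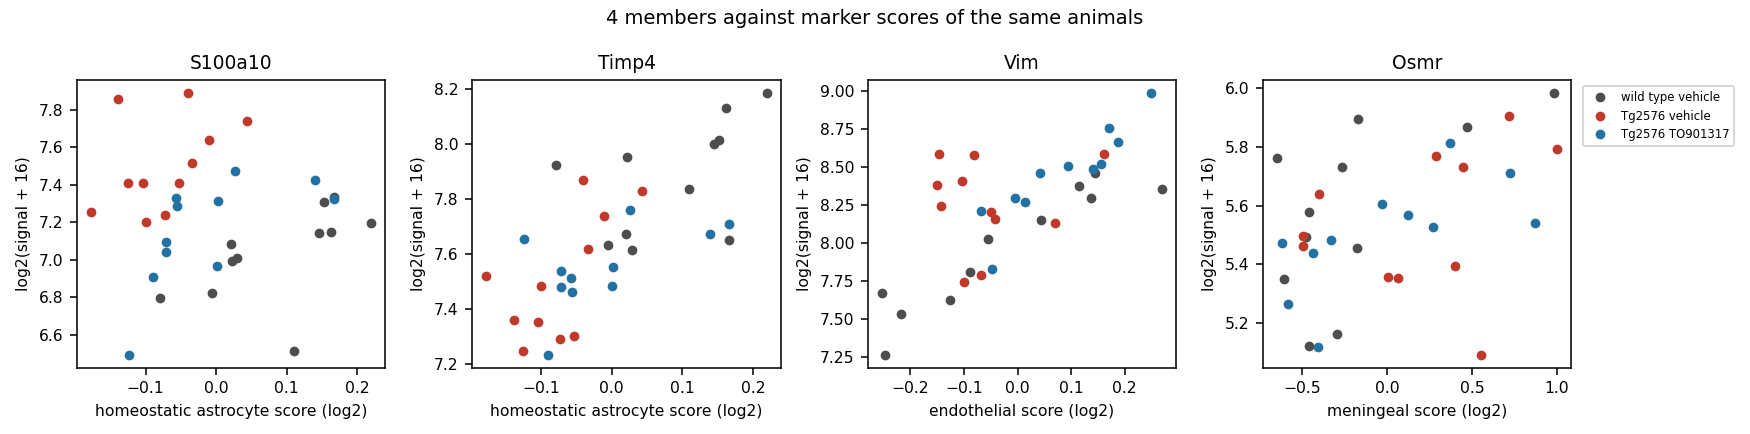
Log2(signal + 16) of S100a10, Timp4, Vim and Osmr against the marker score of the same animal (mean log2 deviation over the markers), 1 point per animal and 1 colour per group, with group means kept. Timp4 and S100a10 both rise with the homeostatic astrocyte score inside the groups, while vehicle Tg2576 lies lower in Timp4 and higher in S100a10 than wild type.

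Among 12759 other genes, those whose pattern over the 33 animals was most like that of Gfap after removing group means were Trak2 (r = 0.73), Olfm4, Abcb10, Nup93 and Ss18. For S100a10 they were Zfp655 (r = 0.72), Timp2, Adcy5, Naxe and Tenm4. For Serpina3n they were Tanc1 (r = 0.75), Csnk1a1, Cyp7b1, Acvr1c and Pkp2, and for Timp4 they were Lamp1 (r = 0.74), Smox, Mxd4, Amer3 and Taf9b. These are the highest of many values and are given as a description. None of the 10 reactive astrocyte genes that could be tested was among these. Lcn2 and Steap4 were below the filter and were not compared.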

How the data were processed

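Total RNA of the right hippocampus was hybridised to Affymetrix MOE430 2.0 arrays, 1 per animal, and groups were taken from the labels. The authors deposited linear intensity values from MAS5, per the submitters' processing notes. Which version and settings they used is not given in the sources used here. The number of arrays limits the precision. The table holds 45101 probe sets: 64 controls, 34945 that name 1 gene, 932 that name several and 9160 with no name here. Gene names are those of the platform annotation and may be outdated.

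Values were taken as log2(signal + 16). The dimmest 40 percent of probe sets (mean signal under 13.3) were not tested, and each gene was represented by its brightest probe set, leaving 12760 genes; 27022 probe sets were also tested singly. Group means were compared in 1 linear model of the 33 arrays, using limma 3.58.1 (R 4.3.3; eBayes with trend and robust), with Benjamini-Hochberg adjustment and a limit of 0.05. Correlations and permutation tests used Python 3.11.15, numpy 2.4.6 and scipy 1.17.1. Both procedures were tested on simulated data. The genes and lists were chosen with earlier results of these data known. Genes named are all 10 and their probe sets, up to 4 passing genes of a list or its gene of smallest p, and the 5 most alike in pattern for Gfap, S100a10, Serpina3n and Timp4; list genes are named where a result touches them. Alternatives covered the pseudocount, filter, normalization, probe set rule, arrays, covariates, variance model, rank-sum test, replicate number and each array left out. Same-numbered animals of different groups deviated together with a median correlation of 0.07 (-0.10 to 0.22). For animals of other numbers it was -0.01 (-0.28 to 0.34). The ranges overlapped, and numbers were not taken as pairs in the main fits.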

Additional observations from a re-analysis of the deposited data

How the results depend on the processing

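Of 3213 recomputed gene and probe set differences, 3111 stayed on their side of the threshold, 79 lost the call, 23 gained it and 0 called values changed sign. Of the 10 genes, 2 passed in vehicle Tg2576 against wild type. This count was 1 with only the groups compared, with the homeostatic astrocyte covariate, without vehicle Tg2576 replicates 3 and 4 and with the mean of probe sets, 0 with the meningeal covariate and the exact rank-sum test, and 0 to 2 with 1 animal left out. For TO901317 in Tg2576 it was 0, 1 with the homeostatic astrocyte covariate and 0 with any animal left out. For treated Tg2576 against wild type it was 0, and 1 with only the groups compared (Timp4), the homeostatic astrocyte covariate (Vim), the endothelial covariate, chosen after seeing the data (Timp4), without vehicle Tg2576 replicates 3 and 4 (Timp4) and with the mean of probe sets (Timp4), and 0 to 1 with 1 animal left out. Of the probe sets 3 passed in vehicle Tg2576 against wild type, 1 with only the groups compared, with eBayes without trend and robust and with the homeostatic astrocyte covariate, 0 with the meningeal covariate, and 1 to 4 with 1 animal left out. The probe set counts of 0 for TO901317 and for treated Tg2576 against wild type became 1 with the homeostatic astrocyte covariate, and the latter also 1 with the endothelial covariate. With the replicate block, Vim passed in treated Tg2576 against wild type (0.49, adjusted p = 0.0368), which raised that count from 0 to 1. Gfap 1426508_at then passed in vehicle Tg2576 against wild type (adjusted p = 0.0342). The labels name the numbers only as biological replicates, and what same-numbered animals share is not given. The cause of these changes was not tested. S100a10 and Timp4 kept their direction in vehicle Tg2576 against wild type in every alternative run. By Pearson's r, 6 pairs and 5 to 6 score relations passed in the 3 alternatives run (a pseudocount of 1, quantile normalization, and without vehicle Tg2576 replicates 3 and 4). By Spearman's rho, 4 pairs and 4 score relations passed. Lcn2 and Steap4 lay far below the filter limit of 13.3, so these arrays show nothing of them.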
